A study of Saccharomyces cerevisiae with 14 samples.

Results

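Weak nucleosome calls of wild-type yeast are the positions at which a nucleosome was called although very little DNA was protected there. They were chosen from the WT list by occupancy, as the nuclear calls that lay outside the repeated ribosomal DNA (451000 to 469000 of chromosome XII) and held less than 0.25 of the median occupancy of such calls. The rule chose 2225 of 63279 calls, or 3.52%, and left 61054 other calls. Their low WT occupancy is therefore a choice and not a result. Most lay between genes: 1036 of 2225 were within 300 bp upstream of a start codon, and 364 were inside a coding frame. In 4 mutants of SNF2 the calls in promoters held less than in WT, at a median of 0.414 (dAT), 0.445 (dSnAC), 0.520 (CD) and 0.735 (dSnf2) of the WT value. The calls in frames had medians of 0.991, 1.03, 0.929 and 0.923 in the same order.

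The series measured nucleosomes by MNase-seq in budding yeast of strain BY4741, grown in rich medium and crosslinked with formaldehyde. The 14 samples carried an SNF2 mutation labelled dAT (3 samples), one labelled dSnAC (3 samples), the catalytically dead substitution K798A (CD, 3 samples) or a deletion of SNF2 (dSnf2, 2 samples), or had the wild-type gene (WT, 3 samples). The names dAT and dSnAC match the AT hooks and the SnAC domain of Snf2, but the labels do not define the alleles, and all samples are labelled BY4741. The authors called nucleosomes on merged replicates, so each strain has 1 list, and no difference between strains has a replicate check or a test.

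Micrococcal nuclease cuts the linker DNA between nucleosomes and leaves the wrapped DNA, whose centre is called the dyad. In yeast, genes are covered by regular arrays, while most promoters hold a nucleosome-depleted region just upstream of the transcription start, bordered by well-placed nucleosomes called -1 and +1. Snf2 is the ATPase of SWI/SNF, a remodeller that slides and ejects nucleosomes. The AT hooks bind AT-rich DNA, and the SnAC domain lies beside the ATPase and helps to couple ATP use to nucleosome movement. The lists give the protected positions and do not say which protein protected the DNA.

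The lists held 63287 nuclear calls outside the repeat for dAT, 63261 for dSnAC, 63469 for CD, 63270 for dSnf2 and 63279 in WT. They rested on 31881933 (dSnAC) to 64981328 (WT) reads, and occupancy was scaled so that 1 is the median call of the strain. A single read is worth 0.00157 for dAT, 0.00195 for dSnAC, 0.00104 for CD, 0.00152 for dSnf2 and 0.000971 in WT on that scale. As a check of the labels, the calls over SNF2 itself held 124 reads in dSnf2, where all 28 calls were weak, against 23730 reads and 0 weak of 26 calls in WT. By the same rule applied to each list, dAT had 2630 weak calls (4.16%), dSnAC 2437 (3.85%), CD 2384 (3.76%), dSnf2 2277 (3.60%) and WT 2225 (3.52%). The count of dSnf2 includes the 28 calls over the deleted gene. Weak calls of the mutants were also emptier, with medians of 0.0393, 0.0428, 0.0470 and 0.0592 in dAT, dSnAC, CD and dSnf2, against 0.0845 in WT.

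The WT weak calls ranged widely in depth. They held 1 to 257 reads with a median of 87, and 298 of 2225 (13.4%) held fewer than 20. The middle of the distribution, from the lower to the upper quartile, ran from 0.0369 to 0.151 on the scaled axis. The threshold lay at 257.5 reads, and the calls nearest to it differed little. Just inside stood 7 calls of 257 reads, among them a call in the frame of FIG2, a cell-surface adhesin of mating cells. Just outside stood 3 calls of 258 reads, among them a call in the frame of SSA1, a cytosolic Hsp70 chaperone.

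Weak calls were placed unlike the other calls. Promoters, taken as -300 to -1 bp of a start codon outside frames, held 46.6% of weak calls (exact 95% binomial interval 44.5 to 48.7) and 9.04% of other calls. Coding frames held 16.4% of weak calls and 78.2% of other calls. In all, 15.8% of promoter calls were weak, against 0.757% of calls in frames. Regions just past a stop codon held 238 weak calls (10.7%, against 5.70% of other calls), other intergenic DNA 544 (24.5%, against 6.45%) and RNA genes 43 (1.93%, against 0.627%). The intervals here and below cover counting error only.

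Within promoters the weak calls were concentrated in a narrow window. Their median dyad lay at -180 bp of the start codon, with quartiles of -230 and -147 bp. In the bin from -200 to -151 bp there were 342 weak calls, which is 15.4% of all weak calls, and the bin held 0.994% of other calls. Of all calls in that bin 36.0% were weak, and in the next bin, -150 to -101 bp, 28.4% were. From -50 to -1 bp, next to the start codon, the share was 1.07%. In the first 50 bp of the frame lay 0.899% of weak calls and 4.06% of other calls. The share of other calls then alternated along the gene, as positioned arrays do, and that of weak calls did not.

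**Figure D1:**
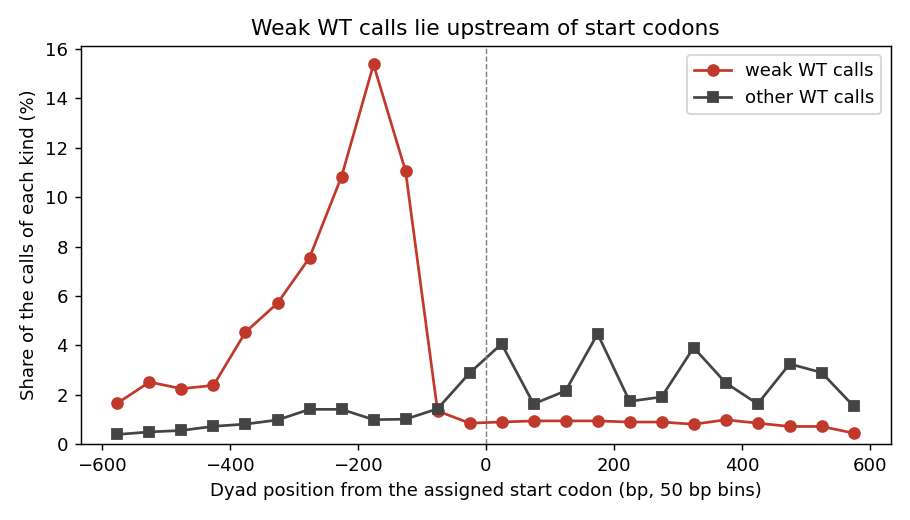
Share of weak WT calls (red circles) and of other WT calls (dark squares) in 50 bp bins of dyad position from the assigned start codon, in percent of the calls of each kind. Weak calls peak at 15.4% in the bin from -200 to -151 bp, where other calls have 0.994%.

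The orientation of the neighbouring genes also differed. Of 1810 weak calls between 2 protein-coding genes, 773 (42.7%) lay between divergent genes, 947 (52.3%) between tandem genes and 90 (4.97%) between convergent genes. The other calls between genes were divergent in 31.2%, tandem in 50.7% and convergent in 18.1%. Intergenic DNA between convergent genes, which holds 2 gene ends and no promoter, thus had the smallest share, with 3.62% of its calls weak against 15.8% between divergent genes.

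The spacing rule of the lists bears on these counts. No 2 dyads in WT lay closer than 148 bp, so a weak call could be listed only where the calls on its sides were at least 296 bp apart. For 5715 of 5889 genes a gap between successive calls of at least 0.25 could be found centred between -350 and 50 bp of the start codon. The gap reached 296 bp in 1303 genes (22.8%), and in 1297 of these (99.5%) it held a weak call. The narrower gaps could hold none and held 0. A weak promoter call therefore marks a depleted region wide enough for a further footprint, and it was listed in nearly every such region.
The median distance between the dyads on the 2 sides was 326 bp for weak promoter calls and 406 bp for other promoter calls. In frames it was 426 bp around weak calls and 335 bp around the others. A neighbour stood within 150 bp for 47.0% of weak calls and 21.0% of other calls. Promoter weak calls mostly stood alone, with both neighbours at 0.25 or more in 88.2% of cases, whereas in frames this held for 52.7%.

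Weak calls had larger SDs of the dyad position than others in promoters and smaller SDs in frames. The SD of the dyad position, a deposited measure of fuzziness, had a median of 33.0 bp over weak calls and 29.8 bp over the others. In promoters the medians were 34.9 bp (weak) and 24.3 bp (other), and in frames 22.3 bp (weak) and 30.5 bp (other). An SD of 40 bp or more was found in 25.3% of weak promoter calls and 8.24% of weak frame calls. An SD under 20 bp was found in 4.83% and 44.0% of them in that order, and calls of few reads were common in frames: 31.9% of weak frame calls held fewer than 20 reads, against 8.49% of weak promoter calls. Over all weak calls the median SD was 13.8 bp under 20 reads, 34.9 bp at 20 to 99 reads and 33.2 bp at 100 or more. Small SDs thus went with few reads, and a small SD in frames need not mean a sharper nucleosome. The part of calls of few reads in the frame median was not tested. The called dyad lay 20 bp or more from the mean dyad position in 22.4% of weak calls and 0.599% of the others.

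**Figure D2:**
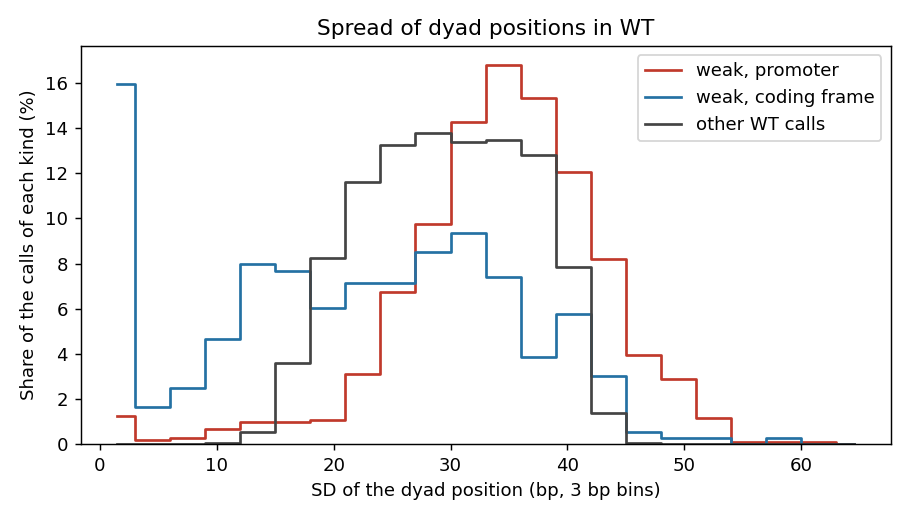
Distribution of the SD of the dyad position in 3 bp bins for weak WT calls in promoters (red), weak WT calls in coding frames (blue) and other WT calls (dark), in percent of each kind. Promoter calls lie to the right of the other calls (median 34.9 bp) and frame calls to the left (median 22.3 bp), with a further peak near 0 bp.

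The 364 weak calls in frames were clustered in certain genes. They fell in 271 genes, and 60 genes with 2 or more held 153 of them. FLO1, a cell-wall flocculin with internal repeats, led with 7 weak of 13 calls, and its relative FLO5 had 5 of 10. HSC82 and HSP82, which encode the near-identical Hsp90 chaperones, had 4 of 12 each, and HXT17, one of several close hexose transporters, had 4 of 5. URA3, a uracil synthesis gene and one of the markers of BY4741, had 4 of 4 weak calls with 8 reads in all. Apart from URA3 these genes have close copies or repeats, and the sources used here do not say how the alignment treated reads from copies, so their values are uncertain. The sharpest weak calls of at least 0.1 also lay in genes with copies: FLO5 (SD 9.07 bp), HHF1, a histone H4 gene (9.44 bp), TDH2, a glyceraldehyde-3-phosphate dehydrogenase (10.4 bp), and AAD3, a putative aryl-alcohol dehydrogenase (11.6 bp).
Of the other marker genes, HIS3 had 1 weak of 3 calls in WT and MET17 had no call. LEU2 is deleted in BY4741, yet its frame had 7 calls in every list, none of them weak, with 5483 reads for dAT, 4578 for dSnAC, 7784 for CD and 5126 for dSnf2, against 8024 in WT. Such coverage is not what a deletion alone would give, and its source was not tested.

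In each mutant most weak WT calls had a counterpart. A mutant dyad lay within 40 bp of 1615 (72.6%) for dAT, 1617 (72.7%) for dSnAC, 1731 (77.8%) for CD and 1751 (78.7%) for dSnf2, against 93.6% to 94.1% of the other WT calls. No mutant dyad lay within 73 bp for 413 (18.6%) of the weak calls for dAT, 425 (19.1%) for dSnAC, 334 (15.0%) for CD and 340 (15.3%) for dSnf2. The shares over the other WT calls were 3.00%, 2.71%, 2.57% and 2.71%. The matched calls were displaced by a median of 6 bp for dAT, 6 bp for dSnAC, 5 bp for CD and 4 bp for dSnf2. Displacement cannot exceed 40 bp in a matched call. Where the flanking calls stand close, the room between them limits it further. In all, 1256 weak calls (56.4%) were matched in all 4 mutants and 208 (9.35%) in none. The match is thus looser than for other calls, 88.1% of which were matched in all 4.

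The matched counterparts held less than the WT calls did. Their median scaled occupancy was 0.0314 for dAT against 0.0854 in the same calls of WT, 0.0350 for dSnAC against 0.0883 in WT, 0.0408 for CD against 0.0845 in WT, and 0.0561 for dSnf2 against 0.0845 in WT. The median log2 ratio, with no pseudocount, was -0.99, -0.84, -0.71 and -0.36 for dAT, dSnAC, CD and dSnf2. The mutant value was below WT in 84.1%, 80.8%, 81.6% and 72.9% of matched weak calls, and in 50.6% to 54.2% of other calls. All 4 ratios share the WT list, and the calls were chosen on it. The comparison is described here and not tested. Between 95.8% (dSnf2) and 96.6% (dAT and CD) of the matched calls were also below 0.25 in the mutant, and 9, 12, 21 and 23 reached 0.5 in dAT, dSnAC, CD and dSnf2.

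A size rule was set at a log2 ratio of 1 or more in either direction after adding 0.1 to both occupancies, which damps changes at low levels. In dAT 10 matched weak calls were higher and 134 lower, where 0.0697% of all matched nuclear calls were higher and 1.18% lower. In dSnAC the counts were 13 and 104 (0.0728% and 0.51% of all matched calls), and in CD 21 and 52 (0.12% and 0.259%). In dSnf2 there were 29 higher and 4 lower (0.136% and 0.0713%). Since the calls were chosen by the WT value that enters the ratio, nothing is read from these shares.

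Counting all mutant reads called nearby gives a view over every weak call, matched or not. The summed scaled occupancy of mutant dyads within 73 bp of the 2225 positions was 118 for dAT, 128 for dSnAC, 155 for CD and 180 for dSnf2, against 215.5 in WT. The sums were thus below WT when unmatched calls counted as 0 and shifted calls were added in. They count listed dyads only, at positions chosen because WT had a listed call, which favours WT. They are therefore no separate check of the deficit.

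The median ratio differed with the WT level of the call. It was below 1 in every weak band and from 0.25 to 0.5, and above 1 from 0.5 to 1, in all 4 mutants. In dAT the median ratio was 0.552 for calls below 0.05, 0.429 from 0.05 to 0.1, 0.424 from 0.1 to 0.15, 0.473 from 0.15 to 0.2 and 0.642 from 0.2 to 0.25. It was 0.839 from 0.25 to 0.5, 1.25 from 0.5 to 0.75, 1.08 from 0.75 to 1, and 0.862 at 1.25 and more. In dSnf2 the corresponding values were 0.883, 0.713, 0.676, 0.708 and 0.804 over the weak bands, then 0.980, 1.09, 1.03 and 0.937. In the band from 0.5 to 0.75, which had the highest median ratio in each mutant, 85.8% of calls lie in frames.

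**Figure D3:**
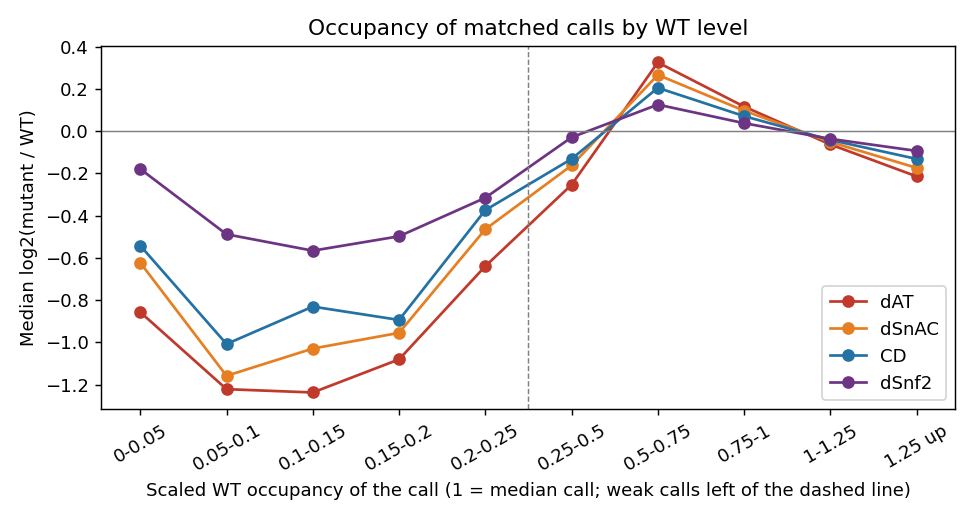
Median log2 ratio of mutant over WT occupancy, with no pseudocount, of calls matched within 40 bp, by the scaled WT occupancy of the call, for dAT, dSnAC, CD and dSnf2. Bands left of the dashed line are weak WT calls, whose medians lie below 0 in all 4 mutants, while the band from 0.5 to 0.75 lies above 0.

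Split by place, weak calls in promoters differed from those in frames. In promoters the median mutant occupancy was 0.0220 for dAT, 0.0272 for dSnAC, 0.0313 for CD and 0.0455 for dSnf2, and the matched calls had 0.0646 to 0.0680 in WT. The median log2 ratios were -1.27, -1.17, -0.94 and -0.44, and 94.6%, 91.7%, 91.4% and 76.4% of matched promoter calls lay below WT. In frames the medians were -0.01, 0.04, -0.11 and -0.12, and 50.4%, 44.4%, 56.7% and 59.1% lay below WT.
Weak calls past stop codons followed those of promoters, with median ratios of 0.467, 0.512, 0.574 and 0.742 in dAT, dSnAC, CD and dSnf2. Calls in other intergenic DNA had 0.539, 0.587, 0.649 and 0.745, and the 43 in RNA genes had 0.634, 0.759, 0.820 and 1.01. Every intergenic class thus kept the same order of the mutants, from dAT with the lowest ratio to dSnf2 with the highest. The classes come from the same lists and are no separate checks. WT calls at 1.25 and more had this order too, with median ratios of 0.862, 0.887, 0.913 and 0.937. Those from 0.5 to 0.75 had the reverse order, with 1.25, 1.20, 1.15 and 1.09. The order is therefore not particular to weak calls. Summed within 73 bp, the promoter calls had 32.5 for dAT, 37.6 for dSnAC, 47.3 for CD and 61.8 for dSnf2, against 86.9 in WT. The frame calls had 32.3, 29.7, 31.4 and 30.8, against 33.5 in WT.

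**Figure D4:**
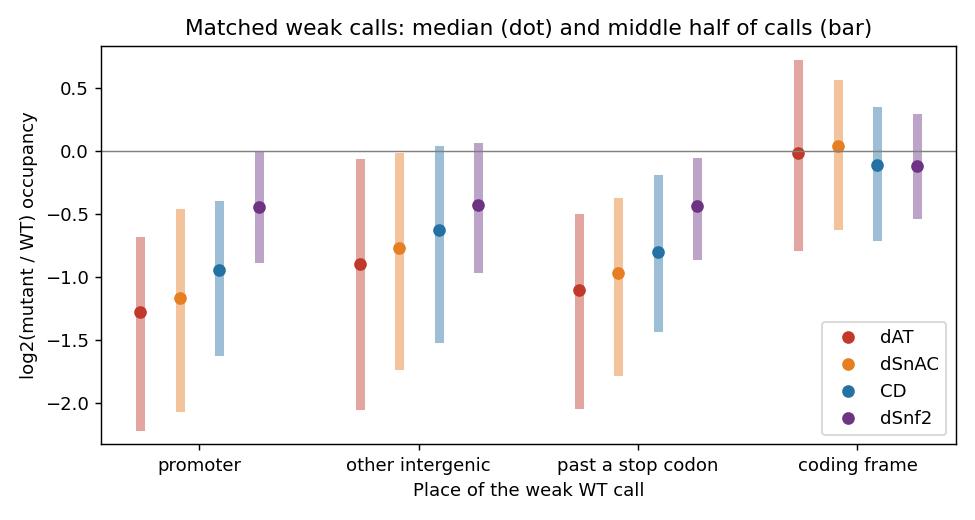
Log2 ratio of mutant over WT occupancy, with no pseudocount, of weak WT calls matched within 40 bp, by place of the call and mutant. Dots are medians and bars run from the lower to the upper quartile of calls. Promoter medians run from -1.27 (dAT) to -0.44 (dSnf2), and frame medians from -0.12 to 0.04.

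Calls picked for a low value in one list tend to be higher in another list for that reason alone. The same choice made in each mutant list is given as a description, since it pulls the ratio of mutant over WT down. The 2002 weak calls of dAT with a WT dyad within 40 bp had a median of 0.0393 in dAT and 0.114 in WT. Those of dSnAC had 0.0428 in dSnAC and 0.108 in WT, those of CD 0.0481 in CD and 0.0995 in WT, and those of dSnf2 0.0622 in dSnf2 and 0.0942 in WT. In promoters the median mutant over WT ratio was 0.404, 0.432, 0.502 and 0.710 by this choice, beside the 0.414, 0.445, 0.520 and 0.735 by the WT choice. In frames it was 0.772, 0.814, 0.776 and 0.793 by the mutant choice, and so moved with the list that chose the calls. The weak frame calls of dSnf2 include those over SNF2, which is deleted there.

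The 4 mutants can be set against each other at the WT weak calls without the WT values that chose them. At the calls matched in both mutants of a pair, the median ratio of dAT over dSnAC was 0.889, of dAT over CD 0.772, of dAT over dSnf2 0.591, of dSnAC over CD 0.874, of dSnAC over dSnf2 0.672 and of CD over dSnf2 0.772. The first of each pair was the lower in 61.4%, 72.0%, 82.2%, 63.97%, 78.5% and 77.6% of these calls, and in 50.8% to 52.9% of the other WT calls. These pairs share lists among themselves and are not independent of each other. With the occupancy damped by 0.1, the median log2 differences were -0.04, -0.09, -0.20, -0.05, -0.17 and -0.11.
The size rule was rarely met, because a call near 0 in both mutants cannot reach it. Of 1446 weak calls, dAT was higher than dSnf2 in 0 and lower in 14 (0.0318% and 0.286% of all calls matched in both). Of 1454, dSnAC was higher than dSnf2 in 2 and lower in 7 (0.0352% and 0.0775% of all). Of 1574, CD was higher than dSnf2 in 0 and lower in 0 (0.0278% and 0.00174% of all). Against CD, dAT was higher in 0 and lower in 8 of 1458 (0% and 0.0439% of all), and dSnAC was higher in 1 and lower in 5 of 1471 (0.0035% and 0.014% of all). Against dSnAC, dAT was higher in 0 and lower in 1 of 1416 (0.00349% of all in each direction).
In promoters the difference between mutants was wider, and in frames there was little. At weak promoter calls dAT held 0.517 of dSnf2 and was the lower in 656 of 722. At weak frame calls the ratio was 1.03, and dAT was the lower in 96 of 207. CD against dSnf2, the dead and the absent protein, had 0.712 in promoters (CD lower in 655 of 785) and 0.960 in frames (121 of 215).

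The nucleosomes on either side of weak promoter calls were lower too, by less. The 892 weak promoter calls with a call of at least 0.25 on both sides, at most 500 bp apart, had a median flank occupancy of 1.02 for dAT, 1.08 for dSnAC, 1.15 for CD and 1.19 for dSnf2, against 1.26 in WT. The median flank ratios were 0.812, 0.848, 0.894 and 0.931, and beside other promoter calls they were 0.878, 0.907, 0.933 and 0.955. The distance between the flanking dyads barely moved, at 324, 321.5, 320 and 318 bp, against 322 bp in WT. It was wider by 20 bp or more around 36, 27, 23 and 22 calls and narrower by as much around 61, 63, 58 and 71. The weak calls thus held less between flanks that stood about as far apart as in WT. The flanks were lower in the same order of mutants, and their part in the lower weak calls was not tested.

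By count, genes of ribosome production had the highest shares of weak promoter calls among 12 lists of genes. Over 5889 genes 1173 (19.9%) had a weak call in the promoter, through 1020 calls, since divergent genes can share a call. Of cytosolic ribosomal protein genes 93 of 139 (66.9%) had such a call, and of ribosome biogenesis genes 34 of 46 (73.9%). By the gap measure, 96 of 136 ribosomal protein genes (70.6%) and 34 of 46 biogenesis genes (73.9%) had a gap of at least 296 bp. By the spacing rule this is nearly the same event as having a weak call, and it is no separate measurement. Heat shock and chaperone genes had 11 of 32 (34.4%), proteasome genes 12 of 35 (34.3%) and amino acid permeases 7 of 23 (30.4%). Mitochondrial ribosomal protein genes had 14 of 69 (20.3%), near the share over all genes. The remaining lists had few: 4 of 26 SWI/SNF and RSC subunits, 4 of 30 mating genes, 3 of 26 iron genes, 2 of 19 hexose transporters, 2 of 21 glycolytic genes and 1 of 11 histone genes.

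In the mutants, weak calls of ribosomal protein promoters had lower ratios than those of the average gene. Their median ratio was 0.191 for dAT, 0.214 for dSnAC, 0.321 for CD and 0.571 for dSnf2, against 0.409, 0.445, 0.515 and 0.731 over all genes with such a call. Of the 99 weak calls of the list, 58, 75, 81 and 77 were matched, so each ratio rests on its own set of calls. Among the matched calls 20, 13, 4 and 0 were lower by the size rule, and 0 were higher in each mutant. Over the promoters of all genes, 60 of 779, 39 of 786, 20 of 846 and 1 of 846 matched weak calls were lower, and 1, 2, 3 and 6 were higher. The list had a higher WT level (median 0.122, against 0.0680 over all genes). A call at or below 0.1 in WT cannot be lower by the size rule, whatever the mutant holds. Most of the calls over all genes thus could not reach it, and the counts of the list and of all genes cannot be compared. Weak calls of ribosome biogenesis promoters were nearly empty already, with a median of 0.0325 in WT, and had ratios of 0.373, 0.334, 0.480 and 0.721. None of them passed the size rule in either direction, and at that WT level most could not be lower by it. The members and lists were picked with earlier results of these data known, and no test of the lists was made.

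RPL43A, which encodes a protein of the large ribosomal subunit, had the lowest ratio of dAT over WT, with 0.1 added to both, among the weak calls of named genes at 0.1 or more. Its weak call (chromosome XVI, 653881 to 654027, dyad at -212 bp of the start codon, sacCer3) was at 11 reads or 0.0173 for dAT, 10 reads or 0.0195 for dSnAC, 53 reads or 0.0554 for CD and 69 reads or 0.105 for dSnf2, against 241 reads or 0.234 in WT. The exact Poisson intervals were 0.00862 to 0.0309 for dAT, 0.00933 to 0.0358 for dSnAC, 0.0415 to 0.0724 for CD, 0.0815 to 0.133 for dSnf2 and 0.205 to 0.265 in WT. The values of dAT and dSnAC overlapped, and those of CD, dSnf2 and WT lay apart from them and from each other.

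ASC1, RPS11A and RPL12A were also lowest in dAT and dSnAC, then in CD and dSnf2, and highest in WT. They were named for low ratios in dAT or dSnAC, so their low values there are a choice and not a result. RPS17B and RPL31B were closer to WT in CD and dSnf2. Members of the gene lists were named by highest mean mutant level, which favours such calls. ASC1, the ribosome-bound RACK1 protein (chromosome XIII, 500843 to 500989, -228 bp), was at 0.0141 for dAT, 0.0292 for dSnAC, 0.0648 for CD and 0.103 for dSnf2, against 0.221 in WT. RPS11A, of the small subunit (chromosome IV, 491240 to 491386, -202 bp), held 0.0188, 0.0292, 0.0627 and 0.0941, against 0.223 in WT. RPL12A, of the large subunit (chromosome V, 53364 to 53510, -219 bp), held 0.0330, 0.0195, 0.0669 and 0.111, against 0.223 in WT. In these 3 promoters dSnf2 kept 0.421 to 0.496 of the WT value and dAT 0.0638 to 0.148. RPS17B, of the small subunit, had 0.0377 for dAT and 0.0739 for dSnAC, but 0.148 for CD and 0.205 for dSnf2, against 0.211 in WT, so that its dSnf2 and WT values overlapped within counting error. RPL31B, of the large subunit, had 0.196, 0.206, 0.223 and 0.296, against 0.242 in WT, with dSnf2 above WT and the interval of each mutant overlapping that of WT.

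In 4 other promoters dSnf2 was lower relative to WT than in the ribosomal ones above. These 4 were among the calls named for the lowest ratios of dSnf2 over WT, so the contrast follows from that choice. TOD6, a repressor of ribosome biogenesis genes (chromosome II, 117228 to 117374, -288 bp), was at 0.0251 for dAT, 0.0447 for dSnAC, 0.0502 for CD and 0.0592 for dSnf2, against 0.246 in WT. Its dAT and dSnf2 intervals, 0.0144 to 0.0408 and 0.0421 to 0.0809, did not overlap. SNF11, a subunit of SWI/SNF itself (chromosome IV, 592170 to 592316, -196 bp), held 0.0455, 0.0428, 0.0251 and 0.0425, against 0.179 in WT. ADO1, adenosine kinase, held 0.0549, 0.0370, 0.0334 and 0.0562, against 0.198 in WT. GSP1, the yeast Ran GTPase, held 0.0487, 0.00973, 0.0314 and 0.0258, against 0.140 in WT. For SNF11 and ADO1 the lowest value was that of CD, but its counting interval overlapped that of each other mutant. For GSP1 the lowest was that of dSnAC, at 5 reads. Its interval overlapped those of CD and dSnf2 but not that of dAT.
YNG1, a subunit of the NuA3 histone acetyltransferase, and DED81, the asparaginyl-tRNA synthetase, were lowest in dAT and dSnAC and highest in WT. Both were named for low ratios in dSnAC, so their low values there are a choice. YNG1 held 0.0188, 0.0156, 0.0491 and 0.0850 in dAT, dSnAC, CD and dSnf2, against 0.194 in WT. DED81 held 0.0157, 0.00778, 0.0272 and 0.0592, against 0.169 in WT.

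A few weak promoter calls stood higher in some or all mutants. TAT1, a tyrosine and branched-chain amino acid permease (chromosome II, 378628 to 378774, -268 bp), held 867 reads or 0.906 in CD and 758 reads or 1.15 in dSnf2, against 130 reads or 0.126 in WT. In dAT and dSnAC no dyad lay within 40 bp of it, and the dyads within 73 bp summed to 0.0848 in dAT and 0 in dSnAC. A full nucleosome was thus called in 2 of the mutants where WT had a weak call, and the listed dyads of dAT and dSnAC summed to less than WT.
FUI1, the uridine permease (chromosome II, 140398 to 140544, -211 bp), held 0.816 in dSnf2, against 0.154 in WT. No other mutant had a dyad within 40 bp, but within 73 bp CD had 0.827, while dAT and dSnAC had none. MUP1, a methionine permease, was on opposite sides of WT in the same pairs of mutants, with 0.0220 for dAT, 0.0331 for dSnAC, 0.216 for CD and 0.197 for dSnf2, against 0.116 in WT. These 3 promoters separate dAT and dSnAC from CD and dSnf2 in the values as called, and they were singled out after their values were seen.

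ZEO1, a membrane protein gene (chromosome XV, 109974 to 110120, -250 bp), was higher in all mutants in which it could be matched. It held 0.471 in dAT, 0.541 in dSnAC and 1.04 in dSnf2, against 0.170 in WT, and CD had no dyad within 40 bp but 0.806 within 73 bp. SHM2, the cytosolic serine hydroxymethyltransferase, had 0.375, 0.307, 0.646 and 0.533 within 73 bp in dAT, dSnAC, CD and dSnf2, against 0.170 in WT. TAT2, a tryptophan permease, had 0.228, 0.313, 0.818 and 1.04 within 73 bp, against 0.142 in WT. FBA1, the glycolytic aldolase, had 0.168, 0.208, 0.360 and 0.393, against 0.182 in WT, with the dAT and dSnAC values inside the WT counting interval of 0.157 to 0.210. In TAT2, FBA1 and SHM2 the higher values were those of CD and dSnf2. PPN2, a polyphosphatase gene (-202 bp), differed, with 0.0942 for dAT, 0.233 for dSnAC, 0.197 for CD and 0.0941 for dSnf2, against 0.0893 in WT.
In frames, CAR1, arginase, held 0.452, 0.372, 0.444 and 0.405 in dAT, dSnAC, CD and dSnf2, against 0.233 in WT. CHS5, a component of the exomer complex of protein export, held 0.529, 0.420, 0.422 and 0.299, against 0.229 in WT. Both were higher than WT in each mutant, dAT included.

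**Figure D5:**
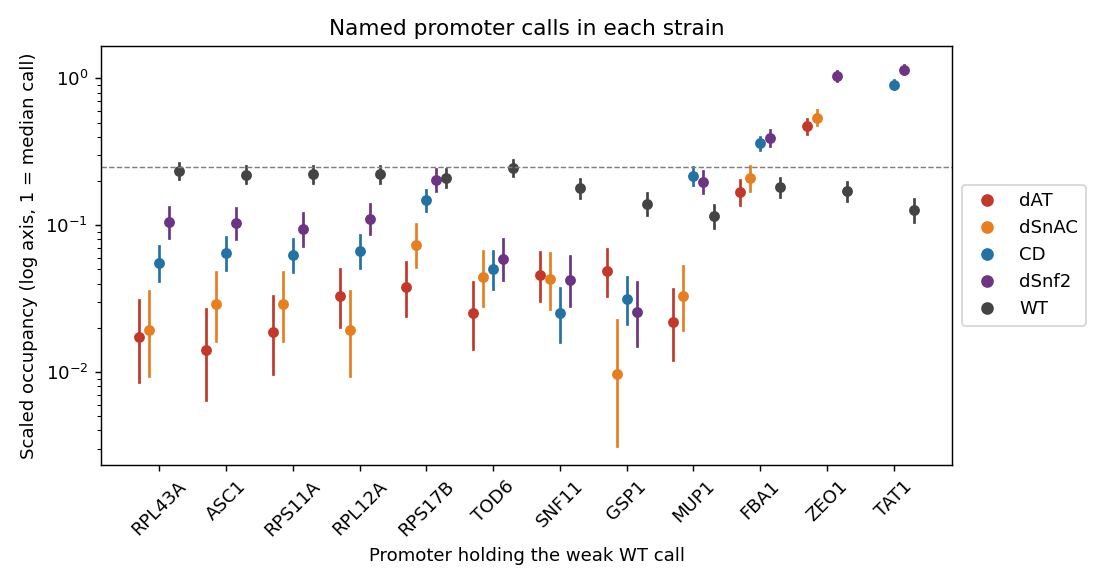
Scaled occupancy (log axis, 1 is the median call) of 12 named weak WT promoter calls in dAT, dSnAC, CD, dSnf2 and WT. Points are the values of the pooled lists, bars are exact 95% Poisson intervals of counting error, the dashed line is the 0.25 threshold, and a point is left out where no mutant dyad lay within 40 bp. RPL43A lies lowest in dAT and dSnAC (0.0173 and 0.0195) and highest in WT (0.234), and TAT1 reaches 0.906 in CD and 1.15 in dSnf2.

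Genes of remodellers and ribosome assembly show how empty a weak call can be. STH1, the ATPase of RSC, the other remodeller of this family, had 0.0126 for dAT, 0.0156 for dSnAC, 0.0125 for CD and 0.0182 for dSnf2, against 0.0359 in WT. DBP2, an RNA helicase, had 1 read each in dAT and dSnAC, 4 in CD and 3 in dSnf2, against 19 in WT. NOP8, a ribosome assembly factor, had 0.0314, 0.0350, 0.0387 and 0.0440, against 0.0320 in WT, which is within counting error in every strain. BCP1, a chaperone of the ribosomal protein Rpl23, had 3, 1, 4 and 5 reads, against 8 in WT. Such promoters were nearly bare in all 5 strains. For DBP2 and BCP1, with 1 to 5 reads in each mutant, 1 read more or less moves the ratio strongly.

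Other weak calls had no counterpart listed in any mutant. In all, 136 of the 2225 had no dyad within 73 bp in any of the mutants. That share was not counted for the other WT calls. Within 40 bp, 208 weak calls (9.35%) and 1178 other calls (1.93%) were matched in none. A missing dyad is not an occupancy of 0, since a call may also go unlisted where the spacing of calls leaves no room. DIG1, a repressor of the mating response, held 252 reads in WT (chromosome XVI, 463905 to 464051), GID8, a subunit of the GID ubiquitin ligase, 249, and RPL21A, of the large ribosomal subunit, 224. None of these 3 promoter calls had a mutant dyad within 73 bp. At the other end, 1169 of the 2225 were matched in all 4 mutants and below 0.25 in each, and 6 were at 0.5 or more in all 4.

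Weak calls also lay beside tRNA genes. Of 275 tRNA genes 56 (20.4%) had a weak call within 100 bp. Of the 316 calls within that distance of a tRNA gene 58 (18.4%) were weak, against 3.52% of all nuclear calls. These 58 weak calls had median ratios of 0.618 for dAT, 0.752 for dSnAC, 0.805 for CD and 1.00 for dSnf2. The order of the mutants was that of the promoters, at higher ratios. The calls are also counted in the classes by place above, 34 of them in RNA genes and 7 in promoters, so this order is no separate observation.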

How the data were processed

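Call lists of 5 strains were analysed, 1 per strain, made by the authors on merged replicates (1, 2 and 3 for CD and WT, 2 and 3 for dAT, 1 and 3 for dSnAC, 1 and 2 for dSnf2), per the labels. Reads were aligned with Bowtie to sacCer3, per the submitters' processing notes. The sources used here do not give the caller, its filters or the scaling. The deposited occupancy is a coverage signal, and it was a whole multiple of the smallest value in 100% of calls within a tolerance of 0.01, so it was read as reads. Positions and their SDs are in bp, per the file headers, and the deposited fraction of conditional position was not used.

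Occupancy was divided by the median nuclear call outside the ribosomal DNA. Mutant dyads within 40 bp of a WT dyad were matched, nearest first. Ratios carry no pseudocount unless 0.1 is stated, a choice made after the data were seen. Genes came from a RefSeq table of R64 (6002 nuclear protein-coding genes, 113 of the outer 10 kb left out of gene counts), with strand from the systematic name. It has no transcription starts. The members, the 12 gene lists and the rules were chosen with earlier results of these data known. Genes were named as the 6 highest and the 6 lowest ratios per mutant and the 6 frames with most weak calls. Added to these were the 6 sharpest and the 6 unmatched calls, those nearest the threshold, SNF2 and the markers. Up to 4 of each list, by highest mean mutant level, and calls weak in all 5 strains were named as well. Simulated call lists were used to test the scripts. Python 3.11.15, pandas 2.3.3, numpy 2.4.6, scipy 1.17.1 and matplotlib 3.10.9 were used. The alternatives changed the threshold, match distance, pseudocount, size rule, promoter window, call filter, chromosome ends and scaling.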

Additional observations from a re-analysis of the deposited data

How the results depend on the processing

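Of 246 values under 12 alternative settings, 152 were labelled as unchanged, 94 as moved and 0 as reversed. Counts carry no error interval and were labelled by the size of their change, and the other values by their error. The median log2 ratio in frames changed sign in dAT and dSnAC under some settings, yet it was labelled as unchanged. The 0 therefore does not mean that every sign held. The promoter share of weak calls was 49.6% at a threshold of 0.20, 44.0% at 0.30, 49.2% without the outer 10 kb and 28.4% with promoters of -200 to -1 bp, which left 710 genes with a weak call. The median dyad SD was 33.6 bp without the outer 10 kb and 33.9 bp without calls under 20 reads. Matching within 20 bp gave 60.9% for dAT, 61.9% for dSnAC, 68.9% for CD and 70.2% for dSnf2, and within 73 bp it gave 81.4%, 80.9%, 85.0% and 84.7%. The share of matched calls below 0.25 was then 95.3% in CD and 94.6% in dSnf2.

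The median mutant level was 0.0283, 0.0302, 0.0355 and 0.0501 at a threshold of 0.20 (dAT, dSnAC, CD and dSnf2), 0.0361, 0.0409, 0.0470 and 0.0653 at 0.30, and 0.0220, 0.0253, 0.0334 and 0.0470 when summed within 73 bp. The WT level at weak calls of each mutant was 0.101, 0.0932, 0.0883 and 0.0854 at 0.20 and 0.133, 0.118, 0.112 and 0.105 at 0.30.

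Many counts past the size rule moved by over 1.5 times. Higher counts in dAT were 16 with a pseudocount of 0.05, 2 with 0.25, 19 within 73 bp, 34 at a rule of 0.58, 17 at a threshold of 0.30 and 19 when summed. In dSnAC they were 6 with a pseudocount of 0.25, 8 within 20 bp, 24 within 73 bp, 37 at 0.58, 8 at a threshold of 0.20, 21 at 0.30 and 24 when summed. In CD they were 43 within 73 bp, 35 at 0.58, 11 at a threshold of 0.20, 38 at 0.30 and 43 when summed. In dSnf2 they were 19 with a pseudocount of 0.25, 47 within 73 bp, 19 at a threshold of 0.20, 45 at 0.30 and 47 when summed. Lower counts in dAT, dSnAC, CD and dSnf2 were 305, 275, 196 and 38 with a pseudocount of 0.05, 0 in each with 0.25, 402, 365, 311 and 132 at a rule of 0.58, 85, 64, 26 and 0 at a threshold of 0.20, and 293, 255, 177 and 121 when summed. In dSnf2 they were 9 within 73 bp and 12 at a threshold of 0.30. The 0 counts with a pseudocount of 0.25 were fixed in advance, since a WT value below 0.25 cannot then give a log2 ratio of -1.

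Between mutants, the median log2 difference with pseudocounts of 0.05 and 0.25 was -0.065 and -0.019 for dAT over dSnAC, -0.15 and -0.044 for dAT over CD, -0.31 and -0.10 for dAT over dSnf2, -0.083 and -0.025 for dSnAC over CD, -0.26 and -0.085 for dSnAC over dSnf2, and -0.17 and -0.058 for CD over dSnf2. Under 7 settings added after the data were seen, the promoter log2 ratio without a pseudocount ran from -1.33 to -1.21 for dAT, -1.18 to -1.10 for dSnAC, -0.97 to -0.93 for CD and -0.47 to -0.43 for dSnf2. In frames it ran from -0.10 to 0.11 for dAT and from -0.04 to 0.09 for dSnAC, on both sides of 0, and from -0.14 to -0.06 for CD and -0.12 to -0.10 for dSnf2.

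Values of single weak calls rest on few reads, with medians of 25 for dAT, 22 for dSnAC, 45 for CD and 39 for dSnf2 over each strain's own weak calls, against 87 in WT. The ratio of a single nearly empty call is therefore uncertain. No paired analysis was possible because each strain has 1 pooled list.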

Other observations

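The outer 10 kb of chromosomes held 153 of the weak WT calls (6.88%), against 0.906% of other calls. Chromosome I had the highest share of weak calls, 81 of 1079 (7.51%), of which 15 lay in promoters and 11 in the outer 10 kb, and chromosome X the lowest, 110 of 3839 (2.87%). Weak calls in the outer 10 kb had median ratios of 0.864 for dAT, 0.960 for dSnAC, 0.902 for CD and 0.862 for dSnf2 over WT, nearer to 1 than those of promoters. Repeated sequence is common in these regions, and the sources used here do not say how its reads were placed.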
